A study of Mus musculus with 33 samples.

Results

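The genes described here encode the proteins of the cytosolic ribosome. They were taken by name, as every gene in the deposited expression tables whose symbol starts with Rpl or Rps and a digit or with Rplp, or is Rpsa, without the Rps6k kinases and without pseudogene names ending in -ps. This gave 82 of the 14613 genes of the whole-epithelium table and 83 of the 14744 genes with values in the sorted-neuron table, with 82 in both. Of those in the epithelium, 45 belong to the large subunit, 31 to the small subunit, 5 are paralogs of a standard ribosomal protein, and 1, Rps19bp1, encodes a protein that binds Rps19. The neuron table adds the paralog Rpl3l. No measured value chose the members.

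The mice were 3 weeks old and homozygous null (KO, Dnmt3a -/-), heterozygous (Het) or wild type (WT, Dnmt3a +/+) for Dnmt3a, the gene of an enzyme that adds methyl groups to unmethylated DNA. RNA of the main olfactory epithelium (MOE), the whole sensory sheet of the nose, came from mice kept for 60 min with 80 µL of an odor mixture (amyl acetate, acetophenone and octanal) or of water, after 10 min in the cage, with 1 library per genotype and treatment and 6 in all. RNA of mature olfactory sensory neurons (mOSN), isolated by flow sorting, came from 2 libraries per genotype, and the table used here holds 1 pooled value for each genotype. Both KO mOSN libraries were made with a NuGEN kit from 100 ng, the Het libraries with 1 of each kit, and both WT libraries with ScriptSeq from 200 ng, so kit and genotype cannot be told apart between KO and WT neurons. The labels do not say whether a library came from 1 animal or several, and the p-values reflect no more than the scatter of these libraries, which may be technical. The labels name no promoter or cell type that would limit the null allele, so values in the epithelium are not tied to 1 cell type.

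The ribosome reads messenger RNA on its small subunit and joins amino acids on its large subunit, and each subunit is a fixed set of proteins on ribosomal RNA. The proteins are needed in near-equal numbers, and their messenger RNAs are among the most abundant in most cells. Many of these messages begin with a C followed by an unbroken run of pyrimidines, the 5′ TOP element, through which mTOR and Larp1 control their translation together. The olfactory epithelium renews its neurons through life, and dividing progenitors, supporting cells and neurons differ in how much protein they make.

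Part of the genes show, at or near the annotated start, the sequence feature that the family is known for. RefSeq promoter sequences (build GRCm38.p6, gene strand) were matched for 61 of the 82 members. Of these, 12 had a C followed by at least 4 pyrimidines exactly at the annotated start (19.7%), against 2.30% of the 10729 matched genes of the epithelium table and 2.49% of 27025 promoters. Such a run started within 5 bases of the annotated start in 28 of 61 members (45.9%), against 19.5% of the matched genes. The 5 longest runs exactly at the start and Rpl28, whose run of 8 bases is equalled by Rpl38 and Rps15a, are shown because they are the element named above. Windows cover 10 bases before and 20 bases from the start, with the pyrimidine run from the start onward in capitals. In each window the base or bases just before the start are also pyrimidines, left in lower case. Rpl15, of the large subunit, lies at chr14:18270967-18270996 (minus strand). Rpl35 lies at chr2:39005112-39005141 (minus strand), Rps10 at chr17:27635225-27635254 (minus strand) and Rps18 at chr17:33955646-33955675 (minus strand). Rps6, the ribosomal protein phosphorylated by S6 kinases, lies at chr4:86857348-86857377 (minus strand), and Rpl28 at chr7:4792955-4792984 (plus strand).
Rpl15: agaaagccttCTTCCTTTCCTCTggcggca
Rpl35: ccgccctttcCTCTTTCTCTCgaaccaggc
Rps10: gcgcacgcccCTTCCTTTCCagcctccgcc
Rps18: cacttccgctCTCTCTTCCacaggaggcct
Rps6: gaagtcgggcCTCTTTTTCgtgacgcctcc
Rpl28: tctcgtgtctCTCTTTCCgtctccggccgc

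In the 300 bases from 250 before to 50 after the start, the letters CCGGAAG, on either strand, occurred in 37.7% of the 61 member promoters, against 15.0% of the matched genes of the epithelium table and 9.12% of all promoters. GGGCGG on either strand occurred in 62.3% of member promoters and 59.8% of the matched genes of the table. TATAAA on the gene strand occurred in 9.84% of member promoters and 5.35% of the matched genes of the table. Overlaps between these letters were not removed. The CpG dinucleotide, a substrate of DNMT3A, numbered 22 in the median member promoter (quartiles 17 and 27) and 19 in the median of the matched genes (quartiles 9 and 27). The 12 members with the pyrimidine run at the start had median log2 differences of 0.23 for KO over WT and 0.33 for Het over WT in the epithelium, and the 49 without it there had 0.18 and 0.26. Some of the 49, such as Rpl27a and Rpl13a, have a run starting within 5 bases of the start. The split therefore does not part genes with the element from genes without it.

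In both tables the members were among the most highly expressed genes. The deposited values are on an RPKM-like scale, reads over gene length with a scaling per library. In the epithelium all 82 members were above the median of all genes tested, and 60 were in the top 10 percent. In the neurons 50 of 83 were in the top 10 percent. On this scale the highest large-subunit means over the 6 epithelium libraries were 22048 for Rpl17, 19243 for Rpl4 and 11722 for Rpl19, and the lowest were 72.5 for Rpl35a, 138 for Rpl30 and 163 for Rpl24. In the small subunit the highest were 7226 for Rps7, 5204 for Rps3a and 3411 for Rps26, and the lowest were 65.5 for Rps15a, 109 for Rps14 and 140 for Rps29. The length by which the reads had been divided ran from 345 bases to 11538 bases among the members, and the level fell with it (Spearman's rho -0.62 across the 82 genes, which share libraries). How that length was counted is not stated, so the order of members by level follows in part the length used. The reads of many members also resemble those of processed pseudogenes, and how such reads were assigned is not stated. Rpl24 carries an identifier that the reference names pair with Zbtb11, so its values may belong to another gene.

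The depth behind the members was high. The mean over the 6 libraries of the median-ranked member was 1785 reads, against 302 reads for all genes, and 80 of 82 members had at least 100 reads in every library. The exceptions were Rps4y2, with 20 to 133 reads in a library, and Rps29, with 75 to 224 reads. Libraries held 11424145 (KO odor), 9448925 (KO water), 17713049 (Het odor), 13369846 (Het water), 13547482 (WT odor) and 12521214 (WT water) reads in genes. Deposited Dnmt3a values were 48.3 and 56.1 in KO (odor and water), 66.6 and 50.3 in Het, and 89.0 and 84.4 in WT epithelium, and 56.2 in KO, 120 in Het and 175 in WT neurons. These values were below WT in every KO and Het column, and where the deleted part of the gene lies among the counted exons was not analysed here. Het libraries stood apart in their cell markers, as given below.

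In the epithelium, the median ribosomal protein message was slightly higher in the KO libraries than in the WT libraries. Relative to each gene's own mean over the 6 libraries, the median member deviated by 0.00 (log2) in KO odor and 0.05 in KO water, by 0.09 in Het odor and 0.17 in Het water, and by -0.09 in WT odor and -0.24 in WT water. The medians of all genes lay between 0.00 and 0.05 in these libraries. WT water was therefore the low library and Het water the high one. WT water was the lowest of the 6 libraries for 52 of 82 members, where 17.2% of all genes had it as their lowest, and Het water was the highest for 40 of 82, against 12.5% of all genes. Members took 1.99% and 2.03% of all reads in KO (odor and water), 1.84% and 2.10% in Het, and 1.63% and 1.72% in WT. Rpl4, Rpl17, Rpl19 and Rpl21, the 4 members with the most reads, held 33.2% to 39.7% of these reads. Without them the shares were 1.20% and 1.32% in KO, 1.23% and 1.35% in Het, and 1.07% and 1.08% in WT, again with no overlap between KO or Het and WT.

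**Figure D1:**
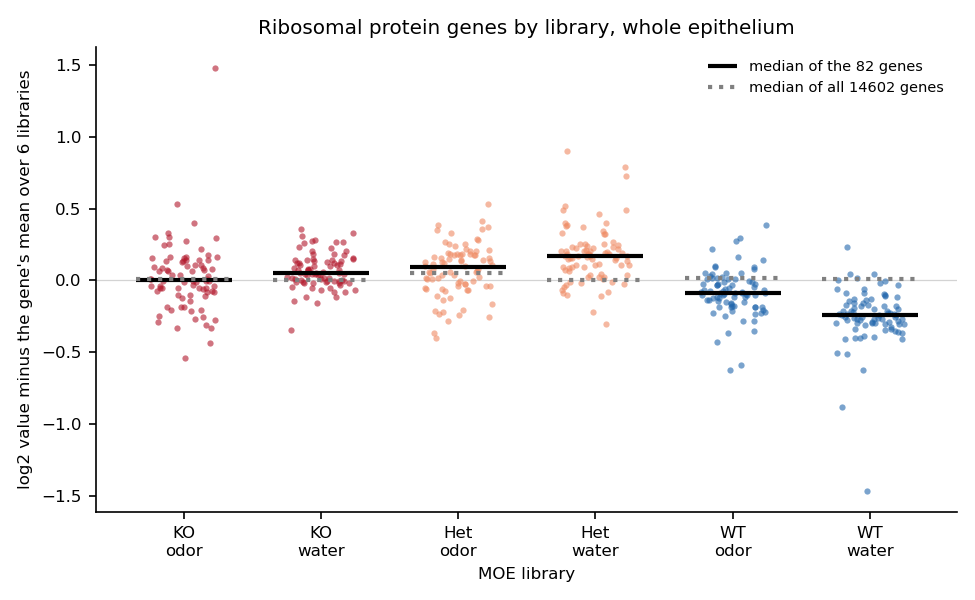
Each point is 1 of the 82 ribosomal protein genes in 1 epithelium library, as its log2 value minus the gene's mean over the 6 libraries. Black lines are the members' medians (0.17 in Het water, -0.24 in WT water) and dotted grey lines the medians of all 14602 genes tested, and the WT water points lie mostly below 0.

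The comparison of KO with WT asked whether loss of Dnmt3a changed these messages. With limma on log2 values, with treatment as a term, 72 of 82 members had a higher estimate in KO, against 7077 of 14602 genes tested, and the median difference was 0.21 on the log2 scale (quartiles 0.10 and 0.27), a fold of 1.16. The median over all genes was -0.01. No member passed the threshold of 0.05 for the adjusted p, nor did any of the 14602 genes (0% in either direction). At an unadjusted p under 0.05, 1 member was higher and 0 lower, where 1.27% of all genes were higher and 0.966% lower. By voom on the recovered reads, the same counts were 1 and 0, with no gene past the adjusted threshold. For 46 of 82 members both KO libraries were above both WT libraries, against 12.4% of all genes, and for 2 both were below, against 13.3%. All members were measured in the same libraries, so these counts are not 82 independent results. The large subunit (41 of 45 higher, median 0.22) and the small subunit (26 of 31 higher, median 0.21) had close medians.

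The size of the family's difference depended on the WT water library. In pairs of 1 library against 1, the median member was 0.09 higher on the log2 scale in KO odor than in WT odor (50 of 82 higher) and 0.30 higher in KO water than in WT water (78 of 82 higher). Without WT water the fitted median was 0.057, with 54 of 82 members higher, and without WT odor it was 0.31. Without WT water, both KO libraries lay above the remaining WT library for 47 of 82 members, where 31.4% of all genes did.

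The member with the smallest p was Rps4y2, whose identifier the reference names pair with Rps4l, a paralog of the small-subunit gene Rps4x. Its values were 158 and 62.1 in KO (odor and water), 47.4 and 93.8 in Het, and 36.5 and 20.2 in WT. All KO and Het values were above both WT values, and KO odor was the highest. The limma difference of KO over WT was 1.85 ± 0.55 (SE), with an unadjusted p of 0.0173 and an adjusted p of 1.00. Rps29, a small zinc-binding protein of the small subunit, had 161 and 127 in KO, 137 and 245 in Het, and 86.8 and 84.9 in WT. KO and Het were above WT in every library, and Het water stood highest. Its KO difference was 0.73 ± 0.31 (SE; limma adjusted p 1.00). Rps19, the gene most often mutated in Diamond-Blackfan anaemia in humans, had 177 and 175 in KO, 181 and 162 in Het, and 140 and 128 in WT, with a KO difference of 0.39 ± 0.17 (SE; limma adjusted p 1.00). Here too KO and Het did not overlap WT.

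Of the 10 members with a lower estimate in KO, the 3 with the smallest p were Rps9, Rpl7l1 and Rpl29. Rps9, a small-subunit protein bound early in assembly, had 176 and 142 in KO (odor and water), 261 and 146 in Het, and 202 and 181 in WT. Both KO values were below both WT values, and the difference was -0.28 ± 0.22 (SE; limma adjusted p 1.00). Rpl7l1 (-0.10) and Rpl29 (-0.09) differed by less than their SE of 0.24 and 0.27, and their KO and WT values overlapped.

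**Figure D2:**
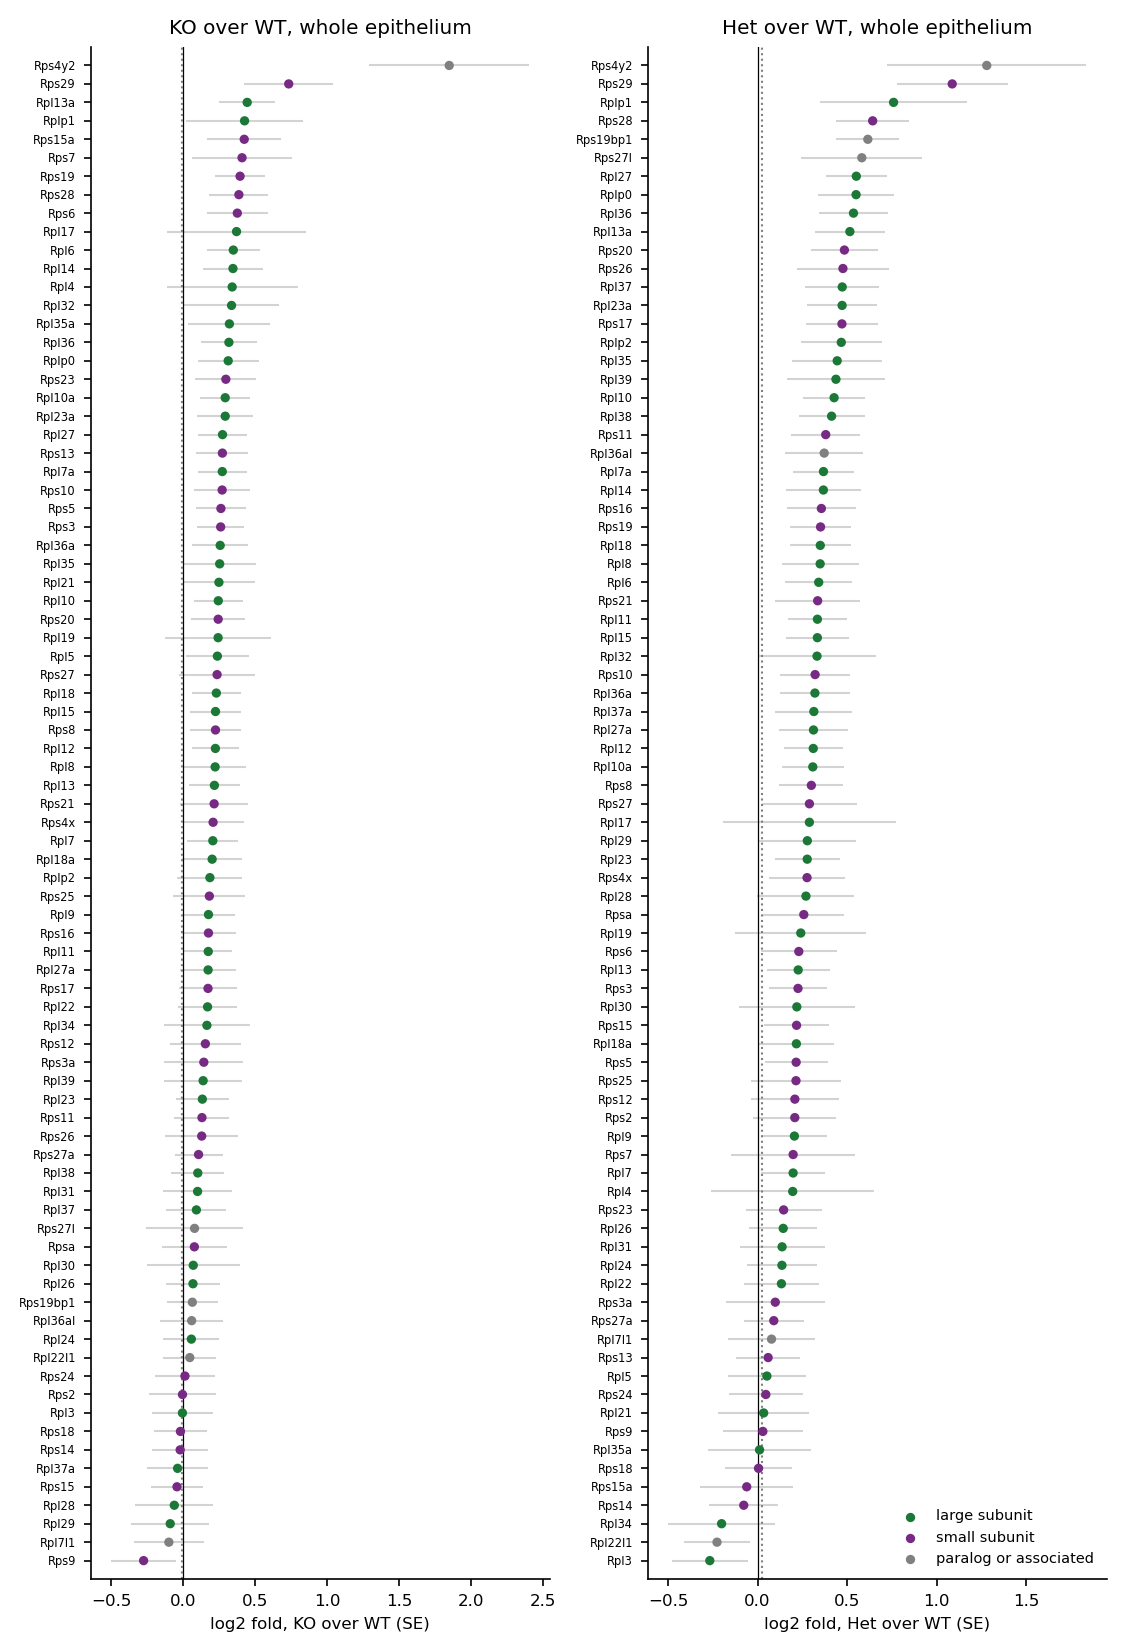
Log2 differences of KO over WT (left) and Het over WT (right) in the epithelium for the 82 members, sorted, with bars of 1 SE from limma and dotted lines at the median of all genes tested. Most points lie right of 0 (72 and 77 of 82), with Rps4y2 and Rps29 at the top in both panels, which share the WT libraries.

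Het epithelium also had a higher family level than WT, and Het against KO was not tested. In Het 77 of 82 members had a higher estimate than in WT, with a median of 0.29 (quartiles 0.20 and 0.38; a fold of 1.22), where the median of all genes was 0.02 and 7677 of 14602 were higher. No member and no other gene passed the adjusted threshold in limma (0% in either direction), and the lowest adjusted p of a member was 0.706. At an unadjusted p under 0.05, 9 members were higher and 0 lower, against 2.71% and 3.99% of all genes, and voom on the recovered reads gave 10 and 0 members. Both Het libraries were above both WT libraries for 54 of 82 members, against 19.0% of all genes, and below for 2, against 18.0%. The KO and Het comparisons share their WT libraries, so they are not 2 independent results.

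The 9 members were Rps19bp1, Rps29, Rpl27, Rps28, Rpl36, Rpl13a, Rplp0, Rps20 and Rpl10. Rps19bp1 had 331 and 380 in Het (odor and water), 218 and 268 in KO, and 232 and 230 in WT. Both Het values were above all others, and its Het difference was 0.62 ± 0.18 (SE; limma adjusted p 0.706). Rps29 had a Het difference of 1.09 ± 0.31 (SE; limma adjusted p 0.706) from the values given above. Rpl27, of the large subunit, had 247 and 292 in Het, and 164 and 204 in WT, with no overlap, and a difference of 0.55 ± 0.17 (SE; limma adjusted p 0.706). Rplp0, the base of the stalk that recruits elongation factors, differed by 0.55 and Rpl13a, also part of a complex that silences inflammatory messages, by 0.52 (both log2). The lowest p among the 5 lower members were those of Rpl3, at the peptidyl transferase centre, with a Het difference of -0.27 ± 0.21, of Rpl22l1 with -0.23 ± 0.19 and of Rpl34 with -0.20 ± 0.30 (SE, limma adjusted p 0.764, 0.768 and 0.870).

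Cell markers also differed between the libraries, and several lists went opposite ways in KO and Het. The summed values of the 12 mature-neuron markers (Omp, Cnga2, Adcy3 and others) were 28043 and 21276 in KO (odor and water), 6288 and 10805 in Het, and 18816 and 25116 in WT. All 12 had a lower estimate in Het than in WT (median -1.05), and 10 of 12 had a higher one in KO (median 0.13). Of 10 immature-neuron markers, 9 had a higher estimate in Het and 1 in KO. Macrophage markers summed to 4015 and 1770 in KO, 2292 and 2283 in Het, and 1539 and 1166 in WT, with 7 of 9 higher in KO and 8 of 9 in Het. Such sums are carried by the most abundant markers. Relative to its own mean over the 6 libraries, the median macrophage marker lay at -0.20 (log2) in KO odor and 0.23 in KO water. In WT it lay at -0.21 with odor and -0.46 with water. Several lists set WT water apart. The 5 Bowman gland markers summed to 51591 and 46045 in KO, 26937 and 72824 in Het, and 63861 and 21498 in WT. By the median marker, Het water lay at -0.14 despite the highest sum, and WT water at -0.56. Sustentacular markers (10) summed to 35629 and 33215 in KO, 37589 and 33844 in Het, and 44155 and 26419 in WT. WT water was the lowest library for both. Ensheathing glia markers summed to 630 and 673 in KO, 998 and 1202 in Het, and 627 and 1740 in WT, highest in WT water, with 0 of 7 higher in KO (median -0.56). All 7 red blood cell markers and all 7 endothelial and mesenchymal markers had a higher estimate in Het, with 3 and 2 of 7 higher in KO. All 10 markers of dividing progenitors had a higher estimate in Het and all 10 a lower one in KO. By the median marker, Het odor and Het water differed in these lists. Progenitor markers lay at 0.49 in Het odor and 0.07 in Het water, against -0.15 and 0.13 in WT (odor and water). Red blood cell markers lay at 0.63 and -0.21 in Het, against -0.37 and 0.06 in WT. Endothelial and mesenchymal markers lay at 0.71 and 0.02 in Het, and immature-neuron markers at 0.59 and 0.06. None of these markers passed the threshold and none was at 0. The part of cell composition in the ribosomal protein values was not tested, and in whole tissue fewer cells of a type and less RNA per cell cannot be told apart.

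Odor exposure for 60 min gave no family shift that held across genotypes. With genotype as a term, 45 of 82 members had a higher estimate with odor, against 7316 of 14602 genes, and the median was 0.01 (log2, quartiles -0.08 and 0.10). No member passed the threshold, where 0.0137% of all genes (2) were called higher and 0% lower, and at an unadjusted p under 0.05 there were 0 members, against 3.01% of genes higher and 1.86% lower. By voom, 1 member was higher at that p and 0 passed the adjusted threshold. By genotype, the median member differed by -0.039 in KO (37 of 82 higher), by -0.13 in Het (26 of 82 higher) and by 0.15 in WT (67 of 82 higher). The direction in WT was thus opposite to that in KO and Het, and the WT difference is taken against WT water, the low library. For comparison, 12 members had higher values with odor in all 3 genotypes and 6 lower ones, against 15.6% and 11.9% of all genes.

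Rps9 had the smallest p for odor, with 176 (odor) and 142 (water) in KO, 261 and 146 in Het, and 202 and 181 in WT. It was higher with odor in each genotype, by 0.43 ± 0.18 (SE; limma adjusted p 0.882). Rps14 (0.23) and Rpl13 (0.21) followed, each with an adjusted p of 0.882 in limma. On the other side, Rpl39, a small protein of the exit tunnel, had 478 (odor) and 817 (water) in KO, 637 and 929 in Het, and 611 and 528 in WT, a difference of -0.37 ± 0.22 (SE; limma adjusted p 0.882), lower with odor in KO and Het and higher in WT. Rps27l, a paralog of Rps27 that p53 is known to induce, had 454 and 791 in KO, 634 and 1141 in Het, and 648 and 497 in WT, with the same split and a difference of -0.42 ± 0.28 (SE; limma adjusted p 0.882). Rpl27 differed by -0.21.

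The odor effect in KO was set against that shared by WT and Het (1 residual degree of freedom). Of 82 members 28 had a positive estimate, against 7256 of 14602 genes, with a median of -0.11 (log2), and 0 passed the threshold (0% of all genes). At an unadjusted p under 0.05 there were 0 members in limma and in voom, against 3.75% of genes in the positive and 3.36% in the negative direction. The smallest p was that of Rpl7l1, a paralog of Rpl7, with 138 (odor) and 191 (water) in KO, 200 and 169 in Het, and 192 and 158 in WT. It was lower with odor in KO and higher in Het and WT, an interaction of -0.73 ± 0.32 (SE; limma adjusted p 0.733). Rplp2, a stalk protein, had -0.56 and Rps21 -0.58, and Rps4y2 had 1.41, Rps15a 0.67 and Rps29 0.74, each with an adjusted p between 0.776 and 0.789 in limma. The family median was 0.02 after quantile normalization, with 44 of 82 positive.

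The members farthest from the family's own shift in a single library were Rps4y2, Rps29 and Rplp1. Rps4y2 lay 1.48 above it in KO odor and 1.22 below it in WT water (log2). Rps29 lay 0.73 above it in Het water. Rplp1, the stalk partner of Rplp2, lay 0.64 below it in WT water. Apart from such cases, the highest library was under 2 times the lowest for 78 of 82 members. The median ratio was 1.45, against 1.82 for all genes, which is also under 2. Members had more reads than most genes (medians of 1785 and 302), and genes of like depth were not compared.

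Each paralog resembles a standard gene, beside which its values are given. Rpl22 binds RNA on the surface of the large subunit, and in mice its protein is known to repress the message of its paralog Rpl22l1. In sorted neurons Rpl22 had 344 in KO, 281 in Het and 211 in WT, and Rpl22l1 had 207 in KO, 309 in Het and 347 in WT. The 2 genes were thus ordered in opposite ways across the genotypes, and the ratio of Rpl22l1 to Rpl22 was 0.603 in KO, 1.10 in Het and 1.65 in WT. These are 1 pooled value a genotype, with no test. The library kits run in the same order, from NuGEN in KO through 1 of each in Het to ScriptSeq in WT. Kit and genotype therefore cannot be told apart in this order. In the epithelium Rpl22 had 364 and 331 in KO (odor and water), 295 and 389 in Het, and 324 and 294 in WT, and Rpl22l1 had 553 and 708 in KO, 495 and 543 in Het, and 614 and 599 in WT. KO and WT overlapped there for Rpl22l1, and Het Rpl22l1 was below WT in both libraries. For Rpl22, both KO values were above both WT values. The ratio of Rpl22l1 to Rpl22 was 1.52 and 2.14 in KO (odor and water), 1.68 and 1.39 in Het, and 1.89 and 2.03 in WT. The opposite order of the neuron columns was thus not repeated in the epithelium.

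**Figure D3:**
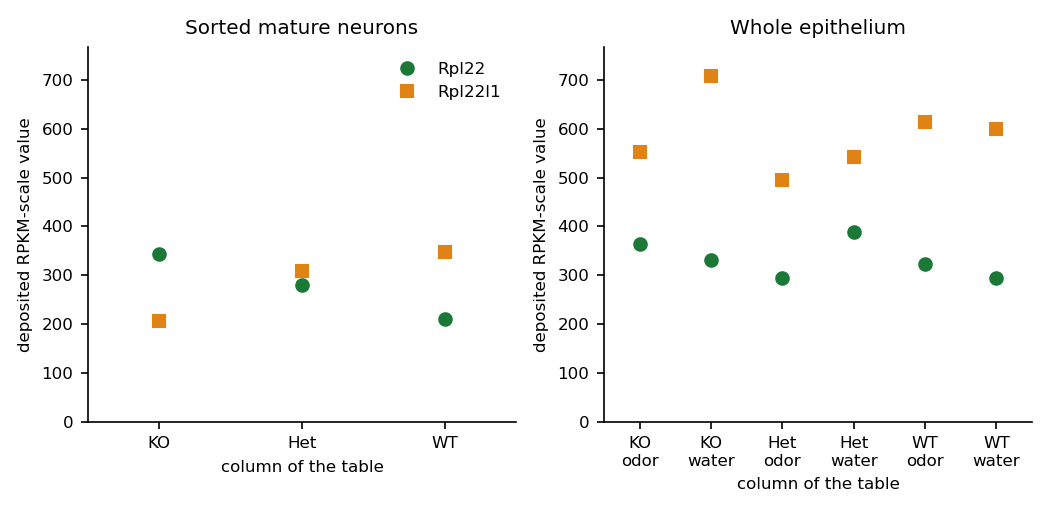
Deposited values of Rpl22 (circles) and Rpl22l1 (squares) in the 3 pooled columns of sorted neurons (left) and the 6 epithelium libraries (right), on an axis from 0. In neurons Rpl22 is above Rpl22l1 in KO (344 and 207) and below it in WT (211 and 347), and in the epithelium Rpl22l1 is above Rpl22 in every library. Across the neuron columns the library kit changes along with genotype.

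The 150 bases before the start of both genes are shown because CpG sites are among those where DNMT3A acts, with CpG in capitals. The stretch of Rpl22 is chr4:152325576-152325725 (plus strand) and holds 8 CpG. That of Rpl22l1 is chr3:28805358-28805507 (plus strand) and holds 17 CpG. Methylation at these sites was not analysed here.
Rpl22: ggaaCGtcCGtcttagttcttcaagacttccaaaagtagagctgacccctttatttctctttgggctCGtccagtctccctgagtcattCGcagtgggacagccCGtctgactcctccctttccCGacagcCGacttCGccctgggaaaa
Rpl22l1: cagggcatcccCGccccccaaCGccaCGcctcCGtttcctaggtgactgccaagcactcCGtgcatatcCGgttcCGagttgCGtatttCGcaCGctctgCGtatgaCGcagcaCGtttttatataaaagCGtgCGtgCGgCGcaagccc

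Rps27l had 220 in KO, 220 in Het and 208 in WT neurons, and Rps27, its standard gene, had 1559, 2006 and 1264. Rpl36al had 57.8 in KO, 62.1 in Het and 51.9 in WT neurons, and Rpl36a had 179, 160 and 174. Rpl7l1 had 112 in KO, 143 in Het and 171 in WT neurons, and Rpl7 had 377, 505 and 510, so both were lowest in KO. Rps4y2 had 492 in KO, 157 in Het and 277 in WT neurons, and Rps4x had 568, 588 and 546. Rpl3l, known as the form of Rpl3 used in striated muscle, was low throughout with 17.0 in KO, 4.94 in Het and 5.49 in WT neurons, against 1086, 1358 and 1270 for Rpl3, so this pair was also ordered in opposite ways, at a low level of Rpl3l.

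The X-linked members Rpl10, Rpl36a, Rpl39 and Rps4x did not share a direction in neurons. Rpl10, which joins the large subunit late in its assembly, had 104 in KO, 130 in Het and 193 in WT neurons, while in the epithelium it had 212 and 220 in KO (odor and water), 245 and 246 in Het, and 193 and 172 in WT. It was thus lowest in KO neurons and, in the epithelium, highest in Het. Rpl39 had 349 in KO, 343 in Het and 317 in WT neurons. In the epithelium Rpl36a had 160 and 188 in KO, 171 and 192 in Het, and 156 and 135 in WT, and Rps4x had 959 and 816 in KO, 871 and 989 in Het, and 874 and 672 in WT.

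In sorted neurons the differences between genotypes were more narrowly spread for the family than for all genes. For KO over WT the median member was -0.05 (log2, quartiles -0.31 and 0.18), where the median of all 14738 genes was -0.13 (quartiles -0.46 and 0.60). By the same measure Het over WT was 0.06 for members and -0.02 for all genes. At 1.5-fold or more, 6 of 83 members were higher in KO (25.4% of all genes) and 9 lower (15.9%). In Het 3 were higher (14.8% of all genes) and 5 lower (7.65%). The members lay high in level (median percentile 92.6 among genes), and genes of like level were not compared. With 1 pooled value a genotype these differences have no replicate check. The direction of the KO median turned under other scalings, to 0.091 with median-ratio scaling and 0.30 with quantile normalization.

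Individual members differed more than the family. Rpl29, a large-subunit protein that also binds heparin, had 369 in KO, 317 in Het and 181 in WT neurons, a log2 difference of 1.02 for KO. Rpl32 of the large subunit had 8505 in KO, 5778 in Het and 4669 in WT neurons, a difference of 0.87. Both were highest in KO with Het between, the order in which the library kits also run. In the epithelium Rpl29 had 454 and 477 in KO (odor and water), 538 and 672 in Het, and 625 and 393 in WT, and Rpl32 had 8662 and 8952 in KO, 8226 and 9383 in Het, and 7577 and 6427 in WT. The order of Rpl32 in KO and WT was the same in both tables, and Rpl29 overlapped between KO and WT in the epithelium. Among members with a mean of at least 10 in neurons, Rps4y2 came next, with 0.83. The low-level paralog Rpl3l, below that mean, had 1.55.

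The lowest KO over WT differences in neurons were those of Rpl15, Rpl10 and Rpl8. Rpl15, whose start is printed above, had 107 in KO, 129 in Het and 215 in WT neurons, a fold of 0.499 for KO over WT. Rpl10 had a log2 difference of -0.89 from the values given above. Rpl8, near the peptidyl transferase centre, had 1137 in KO, 1841 in Het and 2011 in WT neurons, a difference of -0.82. In the epithelium Rpl15 had 340 and 380 in KO (odor and water), 364 and 413 in Het, and 318 and 297 in WT, and Rpl8 had 2204 and 2095 in KO, 2643 and 2087 in Het, and 1938 and 1753 in WT. All 3 were higher in KO than in WT in the epithelium and lower in KO neurons, and the tables were normalized separately, so the difference between them was not tested.

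**Figure D4:**
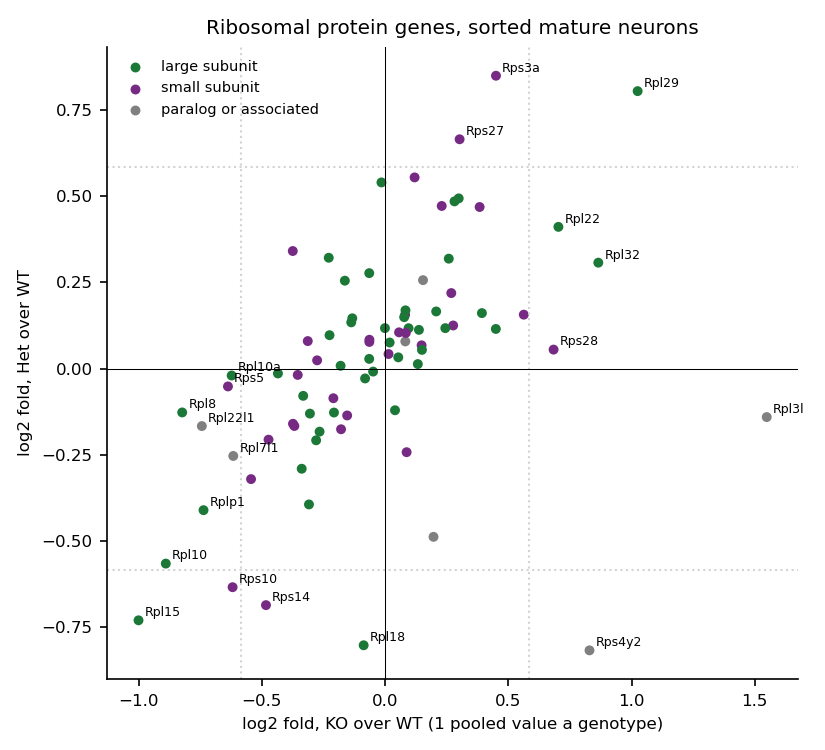
Log2 differences in sorted neurons for the 83 members, KO over WT on the horizontal axis and Het over WT on the vertical axis, with dotted lines at 1.5-fold. Both axes share the WT value. Rpl29 (1.02) lies far right with Rpl3l, and Rpl15 (a fold of 0.499) far left.

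For Het neurons the 3 highest were Rps3a (1807 in Het, 1002 in WT; log2 0.85), Rpl29 (0.81) and Rps27 (0.67), and the 3 lowest were Rps4y2 (-0.82), Rpl18 (17.7 in Het, 31.3 in WT; -0.80) and Rpl15 (-0.73). Among all members 17 had the order KO above Het above WT (21.9% of all genes) and 25 the opposite order (32.7%), so a graded order was not more frequent among them. Markers of other cells moved between these columns. Mature-neuron markers summed to 66389 in KO, 90715 in Het and 96038 in WT, with 0 of 12 higher in KO, while sustentacular-cell markers summed to 730, 645 and 522, with 7 of 10 higher in KO. Horizontal basal cell markers summed to 86.7 in KO, 24.0 in Het and 14.9 in WT, with 6 of 6 higher in KO. Higher in KO were also 7 of 7 endothelial and mesenchymal, 6 of 7 macrophage and 6 of 7 progenitor markers. In the remaining lists these were 3 of 4 Bowman gland, 4 of 6 ensheathing glia, 4 of 7 red blood cell and 5 of 10 immature-neuron markers. The part of sorting purity in the ribosomal protein values was not tested, and no listed marker was at 0.

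The highest large-subunit members in neurons, as means of the 3 columns, were Rpl4 (7050), Rpl32 (6318) and Rplp1 (2497), and the lowest Rpl18 (26.2), Rpl27 (54.4) and Rpl35a (60.3). In the small subunit the highest were Rps25 (3288), Rps12 (2007) and Rps27 (1610), and the lowest Rps19 (39.4), Rps28 (58.5) and Rps2 (61.7). Each member was set on the scale of its own table, as its log2 level over the family median. Over the 82 shared genes the level in WT neurons followed that in the epithelium (Spearman's rho 0.83, with the same length in both levels as a possible shared term that was not tested). Rpl19, a large-subunit protein at the subunit interface, stood at -2.66 in neurons relative to the epithelium on this scale (1051 in WT neurons, against a mean of 11722 in the epithelium), and Rpl17 at -2.58 (2090 against 22048). Rps4y2 stood at 2.81 (277 against 69.7) and Rps29 at 2.07 (333 against 140). Library kits differ between these columns, and their part was not tested.

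**Figure D5:**
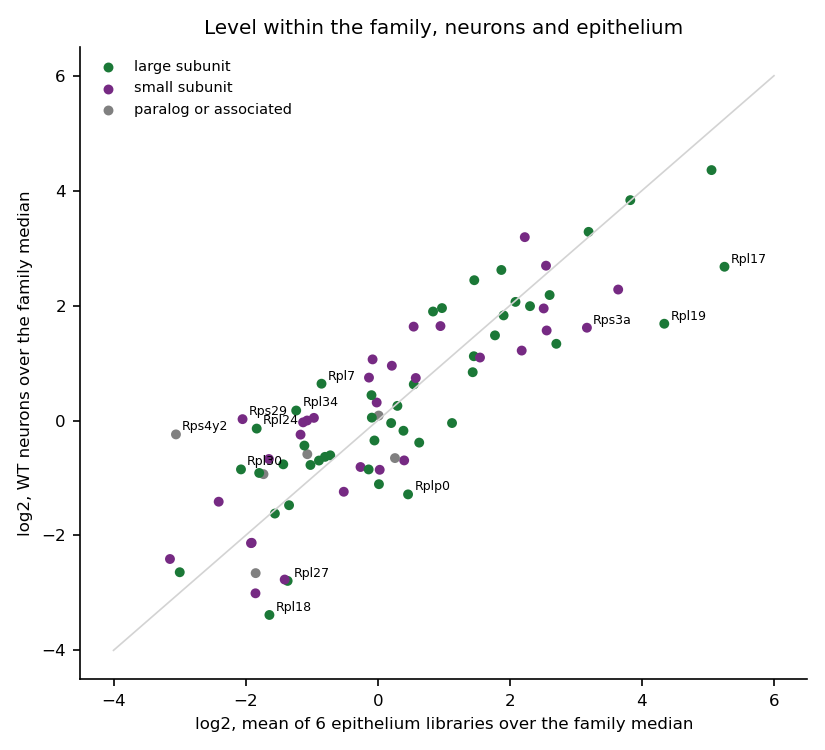
Level of the 82 shared members within the family, as log2 over the family median, in the epithelium (mean of 6 libraries, horizontal) and in WT neurons (1 pooled value, vertical), with the line of equal relative level. Rpl19 and Rpl17 lie below the line (-2.66 and -2.58), and Rps4y2 and Rps29 above it (2.81 and 2.07).

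Small nucleolar RNAs, which guide modification of ribosomal RNA, are often encoded in introns of ribosomal protein genes, and in the reference annotation 30 of the 82 members hold at least 1. These had median differences of 0.22 for KO and 0.30 for Het over WT in the epithelium, and the other 52 had 0.21 and 0.28.

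Other genes of protein synthesis are given for comparison, from lists chosen by function. None of their members passed the limma threshold in any of the 4 comparisons. All 9 elongation factors had a higher estimate in KO (median 0.18) and in Het (0.37) epithelium, among them Eef1a1, which delivers amino acids to the ribosome, with 10717 and 10536 in KO (odor and water), 10870 and 11666 in Het, and 8980 and 7728 in WT. Eef2, which moves the ribosome along the message, had 8618 and 7191 in KO, 9677 and 6927 in Het, and 7248 and 5531 in WT. For initiation factors 17 of 28 had a higher estimate in KO (median 0.04) and 17 of 28 in Het (0.16). Of 35 ribosome biogenesis genes, 12 had a higher estimate in KO (median -0.07) and 26 in Het (0.17). Of 76 mitochondrial ribosomal proteins, 48 (median 0.06) and 52 (0.13) were higher in KO and Het, and of 12 genes that control translation of ribosomal protein messages (Mtor, Larp1 and others) 5 (-0.01) and 7 (0.06). Of 6 genes of the p53 pathway (Trp53 itself among them), which ribosome shortage is known to activate, 4 were higher in KO (median 0.06) and 5 in Het (0.48). In neurons, 1 of 9 elongation factors and 9 of 35 biogenesis genes were higher in KO than in WT, with medians of -0.19 and -0.22 (log2), where the median of all genes was -0.13.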

How the data were processed

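The authors deposited 2 tables of RPKM values, and the submitters' processing notes name, in no order, DESeq, featureCounts, Picard 1.64, STAR 2.3.0 and Bowtie2 2.1, and the builds mm9 and NCBIM37. Each epithelium value equalled whole reads times 1000 over a size factor and a length in bases, for 100% of 14613 genes within a relative tolerance of 2e-12, so those deposited values are scaled by size factors and not by total reads. Values were taken as log2(value + 0.5) for genes that reached 0.5 in 2 or more columns (14602 epithelium genes, 14738 neuron genes). A log2 difference on this scale understates the change of low genes. For the epithelium, limma 3.58.1 (R 4.3.3) was used (mean-variance trend, two-sided, Benjamini-Hochberg adjustment over all genes) on genotype and treatment, with 2 residual degrees of freedom, and 1 for the odor effect in KO. The fits were tested on simulated data. Whole reads recovered by this relation entered voom as an alternative. Neuron columns were compared by fold. The other 21 samples were not analysed here. The rule by name and the gene lists were set with earlier results of these data known, though no measured value entered the rule. Named genes are the highest and lowest levels, the smallest p, the largest neuron folds, paralogs, X-linked members and those apart in 1 library. The epithelium design has 1 library per genotype and treatment.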

Additional observations from a re-analysis of the deposited data

Results flagged for a closer look

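The odor effect on the family differed in direction between genotypes. The median odor minus water difference over the 82 members was -0.039 (log2) in KO and -0.13 in Het, and 0.15 in WT. The WT difference is taken against WT water, which was the lowest of the 6 libraries for 52 of 82 members. In KO the median was near 0, with 37 members higher and 45 lower with odor. Each genotype has 1 library per treatment, so the difference between these medians was not tested, and in the fit for the odor effect in KO no member passed the threshold.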

How the results depend on the processing

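No paired analysis was possible because the neuron columns pool the numbered replicates and the epithelium labels carry no replicate numbers. Epithelium libraries were matched by treatment or genotype as a term, and without that term the medians were the same (0.21 for KO, 0.29 for Het and 0.01 for odor). No member was called in any of the 4 epithelium comparisons under any alternative run. The KO median stayed positive, between 0.057 and 0.31 with single libraries left out, and was 0.057 without WT water. The Het median lay between 0.17 and 0.39 with single libraries left out. Fewer members were higher with odor without the WT pair (28). Their number lay between 28 and 54 with single libraries left out, and the median turned to -0.01 with median-ratio scaling, -0.03 with quantile normalization and -0.02 with voom. The odor effect in KO was positive for 44 members after quantile normalization. In neurons, median-ratio scaling gave a KO median of 0.091 and 5 members at least 1.5-fold lower. Quantile normalization gave 0.30, with 18 higher and 1 lower in KO and 5 higher in Het. At 2-fold on the log2(value + 0.5) scale, 2 were higher and 0 lower in KO, and 0 higher and 0 lower in Het. Rpl15 lies at that limit, with a fold of 0.499 between the deposited values. With single libraries left out, the KO over WT estimate of Rpl7l1 lay between -0.47 and 0.26 and turned without WT odor or KO odor, as did that of Rpl29 (-0.52 to 0.34). The Het over WT estimate of Rpl34 (-0.66 to 0.26) turned without WT odor or Het odor. The cause was not tested. Leaving out Rpl24, and the counts of members above both WT libraries, were alternatives chosen after seeing the data, and moved no count by over 1.5 times. Depth limits mainly Rps4y2 and Rps29.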
